A study of Mus musculus with 6 samples.

Results

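A group of 10 genes of natural killer (NK) cells and cytotoxic granules was followed through 6 mouse RNA-seq libraries labelled as blood basophils. They were taken by symbol from the 55401 Ensembl genes of the count table, and all 10 were matched. The rule that names them uses no measured value, but they were chosen with earlier results of these data known. The members are Nkg7, Gzma, Gzmb, Prf1, Ccl5, Klrb1c, Klrk1, Klrd1, Ncr1 and Eomes. Cells had been sorted as live, CD45+, lineage-negative and positive for CD49b and for FcεRIα or bound IgE, and CD49b is also a classical surface marker of mouse NK cells.

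There are 2 sets, A (libraries A1, A2 and A3) and B (B1, B2 and B3), from wild-type mice of a study of atopic dermatitis. In that study MC903, a vitamin D analogue, was put on both ears daily from day 0 to day 6, at 2 nmol in 10 µL of ethanol, and control mice received ethanol alone. The treatment behind each letter and the age of the mice were not found in the sources used here, and differences are therefore given simply as B minus A. Blood is the labelled tissue, whereas the design text speaks of ear skin. The protocol mentions pooled RNA, and it is not said that replicates were separate animals. The p-values thus reflect the scatter among 6 libraries and nothing beyond it, and that scatter may be technical.

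NK cells kill infected or transformed cells by releasing granules that hold perforin, a pore-forming protein, and granzymes, serine proteases that enter the target through those pores. Activating and inhibitory receptors, many of them C-type lectin-like proteins of the Klr family, set whether a granule is released. Cytotoxic CD8 T cells use the same granules and share several of the receptors, so in bulk RNA the granule genes mark both cell types, while Ncr1 and Klrb1c are more typical of NK cells. Basophils are not usually defined by this programme.

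Total counts were 46137963 to 63956911 per library, with no difference detected between the sets (2-sided exact permutation p = 0.3, where 3 against 3 cannot go below 0.1). Mitochondrially encoded genes took 2.21% to 3.88% of the counts in A and 1.73% to 1.96% in B, without overlap (exact permutation p = 0.1), and the genes with a count numbered 9242 to 11281 in A and 11141 to 14066 in B (exact permutation p = 0.2). The part of these differences in the values of the killer cell genes was not tested. The sort was checked against genes of its gate and other genes of basophils. Ptprc, which encodes CD45, was at 571 to 905 CPM in A and 532 to 625 CPM in B. Several defining basophil genes were near 0 in set A, though not all. Mcpt8, a basophil granule protease, was at 0.681 to 1.28 CPM (counts scaled by the library total) in A and 478 to 1173 CPM in B, and Fcer1a had 4, 0 and 0 counts in A. Hdc, the enzyme that makes histamine, was at 38.0, 62.2 and 267 CPM in A and at 685, 467 and 359 CPM in B, and Gata2, a transcription factor of basophils and mast cells, was at 0.109, 45.6 and 116 CPM in A and at 42.8, 1.15 and 24.8 CPM in B. Itga2, which encodes CD49b, had 0 counts in all 3 libraries of A and in B3, against 13.99 and 31.91 CPM in B1 and B2. A count of 0 allows up to 3 counts, or 0.0469 to 0.0650 CPM, and such floors cover counting error only.

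The killer cell genes were present in both sets. Summed over the 10 genes they came to 3436, 1634 and 2624 CPM in A1, A2 and A3, and to 1881, 1473 and 1348 CPM in B. The sets overlapped, since A2 lay below B1. Nkg7, Gzma and Ccl5 together made up 75.7% to 89.0% of this sum in each library. Set means were 2565 ± 902 CPM in A and 1568 ± 279 CPM in B (SD, n = 3). Their difference of -997 CPM was -561 CPM without A1. In bulk RNA, fewer cells of a type and less RNA per cell cannot be told apart.

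The 5 genes Nkg7, Gzma, Ccl5, Klrb1c and Ncr1 reached at least 1 CPM in all 6 libraries. Klrk1, Klrd1 and Prf1 did so in 5, Gzmb in 4 and Eomes in 1. Of the 60 values of the members, 10 (16.7%) were under 1 CPM. Such values were common in these libraries at low abundance: they made up 37.7% of values among tested genes with a mean of 10 to 30 CPM, 19.5% at 30 to 100 CPM, 3.68% at 100 to 300 CPM and 0.0817% at 300 to 1000 CPM.

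Per kilobase of exon the abundance order was led by 3 genes. Over the 6 libraries Nkg7 was at 780 ± 367 CPM per kilobase, Ccl5 at 538 ± 211 and Gzma at 425 ± 150 (SD, n = 6). The others lay far lower, with Ncr1 at 51.4 ± 26.4 CPM per kilobase, Klrb1c at 40.2 ± 31.2, Klrd1 at 29.1 ± 38.7, Gzmb at 25.7 ± 29.3, Prf1 at 20.2 ± 10.8, Klrk1 at 10.5 ± 8.45 and Eomes at 2.22 ± 5.40. Gzma and Ncr1 were the only neighbours in this order whose means differed by more than the larger of their SDs. The lengths are unions of exons in GENCODE M21, and the sources used here do not name the annotation behind the counts.

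Among the granule genes, Nkg7, which encodes a membrane protein of cytotoxic granules, was the most abundant member. Its level was 1278, 468 and 972 CPM in A1, A2 and A3 and 578, 494 and 489 CPM in B. A1 and A3 stood above all of B, and A2 lay below all of B. The log2 difference was -0.92 (SE 0.40, adjusted p = 0.835), and it did not pass the threshold of 0.05. Such differences come from a quasi-likelihood fit with edgeR, adjusted after Benjamini and Hochberg over all genes tested.

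Gzma encodes granzyme A, a tryptase of the granule. It was at 521, 318 and 593 CPM in A and at 570, 247 and 314 CPM in B, with full overlap of the sets. The log2 difference was -0.44 (SE 0.41, adjusted p = 1.00 by edgeR).

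Gzmb, which encodes granzyme B, a protease that cleaves at aspartate and triggers apoptosis in the target cell, was far more uneven. It had 4, 0 and 4151 counts in A1, A2 and A3, the last being 89.97 CPM, and was at 87.5, 33.9 and 9.76 CPM in B. Thus 1 library of A held as much as the highest of B, and the other 2 held almost none. The log2 difference of 0.53 had a standard error of 2.87 (adjusted p = 1.00 by edgeR). It became 9.93 without A3, -0.03 without A1 or A2 and -0.49 without B1.

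Prf1, which encodes perforin, was at 65.0, 0 and 74.2 CPM in A and at 72.5, 44.1 and 57.7 CPM in B. A2 held no perforin count, and the other 5 libraries lay close together. The log2 difference was 0.22 (SE 2.22, adjusted p = 1.00 by edgeR), and -0.35 without A2. That library also had 0 counts of Gzmb while Gzma stood at 318 CPM in it.

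Ccl5, a chemokine that memory and cytotoxic lymphocytes store and secrete, varied little within each set. Its level was 823, 668 and 564 CPM in A1, A2 and A3 and 330, 375 and 338 CPM in B. The sets did not overlap, and the mean of A was 1.97 times that of B (685 ± 130 against 348 ± 24.2 CPM, SD, n = 3). The log2 difference was -1.10 (SE 0.26). It was the member with the smallest p (unadjusted p = 0.00476 by edgeR), but it did not pass over all genes tested (adjusted p = 0.508). DESeq2 called it lower in B (log2 difference -1.20, adjusted p = 0.000972), though not when run on every gene with a count (adjusted p = 1.00), and limma-voom did not (adjusted p = 0.106).

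**Figure D1:**
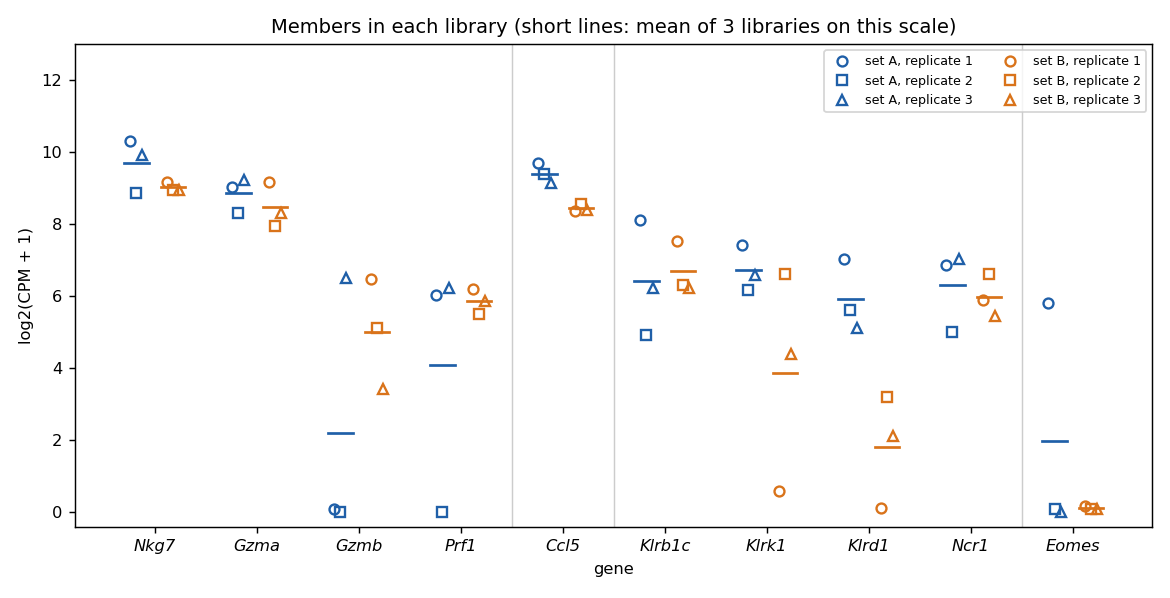
Level of each member in every library, as log2(CPM + 1), with set A in blue, set B in orange, 1 marker shape per replicate number and short lines at the set means; grey lines separate granule genes, the chemokine, receptors and the transcription factor. Ccl5 and Klrd1 show no overlap between the sets, and Gzmb, Prf1, Klrk1, Klrd1 and Eomes have libraries near 0.

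Of the 4 receptors, Klrb1c and Ncr1 reached 1 CPM in every library. Klrb1c encodes the NK1.1 antigen, by which NK cells of C57BL/6 mice are usually stained. It was at 276, 29.4 and 73.4 CPM in A and at 184, 78.2 and 73.7 CPM in B, with overlap. The log2 difference was -0.35 (SE 0.96, adjusted p = 1.00 by edgeR) and turned to 1.10 without A1. Its exons overlap those of Gm44511, a gene model on the same strand with which it shares 8.73% of its windows of 150 bases, and Gm44511 had 1 count in A3 and 0 in the other 5 libraries.

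Ncr1 encodes NKp46, an activating immunoglobulin-like receptor that is among the most selective markers of NK cells and group 1 innate lymphoid cells. It was at 117, 31.4 and 129 CPM in A and at 58.7, 96.3 and 42.6 CPM in B. Its lowest and highest values both lay in A, and the log2 difference was -0.61 (SE 0.92, adjusted p = 1.00 by edgeR).

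Klrk1 encodes NKG2D, an activating receptor for stress-induced ligands that NK cells and CD8 T cells share. It was at 170, 71.0 and 94.9 CPM in A and at 0.503, 96.9 and 19.98 CPM in B. B1 was nearly empty and B2 lay within A. The log2 difference was -1.67 (SE 1.59, adjusted p = 1.00 by edgeR), and -3.49 without B2.

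Klrd1 encodes CD94, the partner of the NKG2 chains in a receptor for a non-classical class I molecule. It had the widest difference of the 9 members tested. Its level was 131, 48.0 and 33.5 CPM in A1, A2 and A3 and 0.0804, 8.17 and 3.31 CPM in B, the lowest of these being 4 counts. All of A stood above all of B, with means of 70.8 ± 52.5 and 3.85 ± 4.07 CPM (SD, n = 3). The log2 difference was -4.37 with a standard error of 2.02 (unadjusted p = 0.0706, adjusted p = 0.944 by edgeR), so the test did not call it. DESeq2 placed it at the threshold (log2 difference -4.50, adjusted p = 0.05, just under the limit) and did not call it when run on every gene with a count (adjusted p = 0.118) or without its outlier cutoff (adjusted p = 0.0525).

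Eomes encodes Eomesodermin, a T-box transcription factor of mature NK cells and memory CD8 T cells. It had 3034 counts in A1, which is 55.0 CPM, and 4, 0, 6, 4 and 4 counts in the other 5 libraries. It did not pass the filter on low counts and was not tested. Tbx21, which encodes T-bet, the related T-box factor, was at 82.8 CPM in A2, at 10.7 CPM in B3 and at or under 0.0676 CPM in the other 4. So 3 of the 6 libraries held neither factor above a few counts while all 6 held Nkg7, Gzma, Ccl5, Klrb1c and Ncr1.

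Because both factors belong to the T-box family, and the factors of the RUNX family also act in killer cells, the RefSeq promoter windows (GRCm38.p6, 250 bases before to 50 after the start of transcription) were searched for AGGTGTGA and TGTGGTTT on both strands. Windows matched 8 of the 10 members, and Klrd1 and Ccl5 had no entry. The T-box letters were found in the window of 1 member, Nkg7, and in 1.28% of all 32851 windows. The RUNX letters were found in that of 1 member, Gzma, as the reverse complement, and in 1.78% of all windows. The matches lay 14 and 52 bases before the start. They are shown because they were the only matches among the members, with the matched letters in capitals, 5′ to 3′ on the strand of the gene.
Nkg7, plus strand, chr7:43437113-43437142: gggggtagggaAGGTGTGAgaagaatcaga
Gzma, minus strand, chr13:113101015-113101044: agagaagaacaAAACCACAtcctttgcact
A match is a description of letters and not a binding site.

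Across the group 9 members could be tested and 0 passed in either direction by edgeR, where 0.0217% of the 9196 genes tested passed. Without adjustment, p was under 0.05 in edgeR for 1 member, Ccl5, lower in B (1.32% of all genes tested) and 0 higher (5.05%), or 6.36% of all genes in either direction. Ccl5 and Klrd1, 2 of the 9, did not overlap between the sets and both were higher in A. Of all tested genes 3.91% stood wholly higher in A, 10.2% wholly higher in B and 14.1% one or the other. The fitted value was below 0 for 7 of the 9 members, as for 52% of all tested genes, and these directions did not change with RLE scaling or with library size alone. The median log2 difference was -0.61, beside -0.06 over all genes tested, and without 1 library it became -0.32 (A1), -0.33 (B3) or -1.01 (A2). DESeq2 called 2 of the 9, both lower in B, where it called 7.16% of the genes it could adjust (1.25% lower in B and 5.91% higher), and limma-voom called 0, where it called 2.2%.

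**Figure D2:**
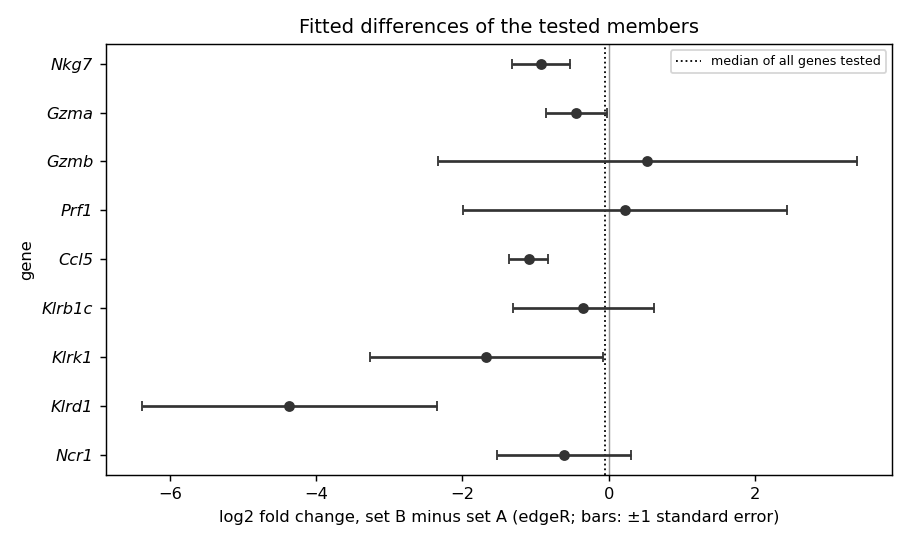
Fitted log2 fold changes of set B minus set A for the 9 tested members from edgeR, with bars of 1 standard error, a grey line at 0 and a dotted line at the median of all genes tested (-0.06). Ccl5 at -1.10 and Nkg7 at -0.92 have short bars, and Gzmb, Prf1 and Klrd1 have bars of more than 2 on the log2 scale.

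Most markers of T cells also had higher values in A. Of 13 T cell markers 11 were tested, 9 of them had a fitted value below 0 (52% of all tested genes did), and 0 passed by edgeR. DESeq2 called Cd8b1 and Trac lower and Cd6 higher in B, where it called 1.25% of the genes it could adjust lower and 5.91% higher. The summed level of the 13 markers was 844 to 1324 CPM in A and 261 to 446 CPM in B, with no overlap. Of the 11 tested, 3 did not overlap singly, each higher in A (3.91% of all tested genes lay wholly higher in A). Trbc2 and Trbc1, constant chains of the beta T cell receptor, and Cd3d, a chain of the CD3 complex, averaged 183, 156 and 129 CPM in A, against 101, 51.4 and 65.3 CPM in B. Cd8b1, a chain of the CD8 coreceptor of cytotoxic T cells, was at 62.6, 166 and 289 CPM in A and at 0.603, 0.0676 and 10.4 CPM in B, and Cd4 had 0 counts in all 6 libraries. Cd6, a T cell surface receptor, went the other way, at 0, 0.189 and 0 CPM in A and at 0.161, 74.4 and 13.4 CPM in B. The median log2 difference of the tested markers was -1.13. The part of T cell RNA in the values of Ccl5, Klrd1, Klrk1 and Nkg7 was not tested.

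Markers of other blood cell types were read in the same way. The 8 basophil markers summed to 39.7 to 385 CPM in A against 1449 to 3195 CPM in B, and the 12 neutrophil markers to 2400 to 9713 CPM in A and 12520 to 23293 CPM in B, with no overlap in either. By edgeR 2 basophil markers passed, higher in B, and they were the only 2 of the 9196 genes tested to pass. DESeq2 called 6 of 8 tested basophil and 4 of 10 tested neutrophil markers higher in B (5.91% of the genes it could adjust). B cell markers overlapped (3302 to 5190 CPM in A, 3681 to 5000 CPM in B). Monocyte markers summed to 34951 to 42145 CPM in A and 24568 to 32606 CPM in B, without overlap. Most of that sum was 1 gene, Lyz2, at 32015 to 39756 CPM in A and 22600 to 29746 CPM in B. The markers did not all go 1 way. Adgre1 averaged 64.2 CPM in A and 149 CPM in B, F13a1 0.0242 and 50.6 CPM, and Fn1 1.18 and 4.33 CPM. Summed platelet markers (1046 to 1251 CPM in A, 526 to 827 CPM in B) were wholly higher in A. The same held for erythroid markers (349 to 630 CPM in A, 136 to 181 CPM in B). Summed markers of plasmacytoid dendritic cells overlapped (212 to 282 CPM in A, 154 to 337 CPM in B). Of these, Siglech was at only 0.726 to 1.80 CPM in A and 0.938 to 1.71 CPM in B. Ccr9 had 4 counts in A3 and 0 elsewhere. The sums came almost wholly from Tcf4, Irf7, Spib and Bst2, and whether these dendritic cells were present was not tested. Since CPM values share 1 total, a larger share of one cell type lowers the CPM of the others, and how far this bears on the members was not tested.

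**Figure D3:**
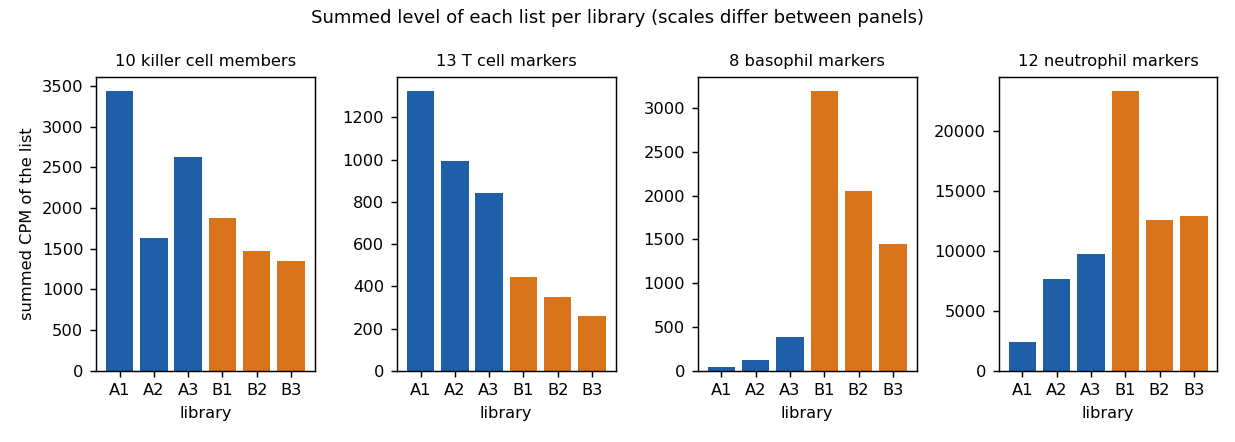
Summed CPM of the 10 killer cell genes and of the T cell, basophil and neutrophil markers in each library (A in blue, B in orange, bars from 0, scales differ between panels). The killer cell genes overlap between the sets (1634 to 3436 CPM in A, 1348 to 1881 CPM in B), and the other lists do not.

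The rest of the granule machinery was read from lists of the pathway. Of 13 other granule proteins and processing enzymes 3 could be tested and 0 passed by edgeR, where 0.0217% of all tested genes passed. The same share stands beside every list below. With so small a share, 0 passing in a short list says little about its genes. Srgn, which encodes serglycin, the proteoglycan that packs granzymes, was at 1852 to 2150 CPM in A and 1392 to 1883 CPM in B. Ctsc, the cathepsin that activates granzymes, was at 105 to 296 CPM in A and 269 to 692 CPM in B, and Ctsw, a cathepsin of NK and CD8 T cells, swung from 0.870 to 387 CPM within A and from 0.423 to 134 CPM within B. Serglycin and cathepsin C are also made by many myeloid cells. The granzyme genes beyond Gzma and Gzmb were almost silent: Gzmd, Gzme, Gzmf, Gzmg and Gzmk had 0 counts in all 6 libraries, Gzmm had 4 counts in B2, and Gzmc was at 17.6 CPM in B2 and at 0 elsewhere.

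Of the 9 matched genes of granule exocytosis all were tested and 0 passed by edgeR (0.0217% of all tested genes did). Coro1a, an actin regulator, averaged 2563 CPM over the 6 libraries, Vamp8, a vesicle fusion protein, 899, Lamp1, a lysosomal membrane protein, 606, and Stxbp2, a syntaxin partner needed for granule release, 260. These are broadly expressed in leukocytes. Vamp8 was at 428 to 953 CPM in A and 971 to 1140 CPM in B, without overlap. It was the 1 gene of the 9 that stood wholly higher in B (10.2% of all tested genes). In A 0 of the 9 stood wholly higher (3.91% of all tested genes).

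Among death ligands and secreted products of killer cells other than Ccl5, 54.2% of the values were under 1 CPM. Of 8 genes 4 were tested and 0 passed. Ifng had 4 counts in B3 and 0 in the other 5 libraries. Tnf, a secreted cytokine, was at 125, 0.662 and 56.3 CPM in A and at 2.03, 2.13 and 12.04 CPM in B. For Tnf, A1 and A3 stood above all of B, and A2 lay below all of B. The chemokines Ccl3 and Ccl4 were seen in every library, Ccl3 at 22.1 to 198 CPM in A and 46.4 to 100 CPM in B, and Ccl4 at 13.1 to 68.9 CPM in A and 33.3 to 83.3 CPM in B. Fasl, the death ligand of cytotoxic lymphocytes, was at 256 CPM in A2, 61.2 in B2 and 20.1 in B3, and under 0.3 CPM elsewhere. A2, where Fasl was highest, was the library with 0 counts of Gzmb and Prf1.

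The other lectin-like receptor genes, which include the Ly49 receptors (Klra genes) that sense class I molecules, varied from library to library. Of 19 such genes 0 reached 1 CPM in all 6 libraries, 5 had fewer than 1 CPM in every library, and 72 of the 114 values (63.2%) were under 1 CPM. Each library held 5 to 9 of them at 1 CPM or more. Klra8 was at 150 CPM in A1 and 34.0 in B3, Klra3 at 91.2 in A3 and 23.8 in B3, and Klra1 at 56.6 in B1 and 11.7 in B3, and each was under 3 CPM in the other 4 libraries. Klrc1, which encodes the inhibitory NKG2A chain that pairs with CD94, was at 89.4, 32.1 and 0 CPM in A and at 58.8, 15.2 and 13.4 CPM in B. In B1 it therefore stood at 58.8 CPM beside 4 counts of its partner Klrd1. Of the 19, 8 were tested and 0 passed. Klrc1 shares 4.32% of its windows of 150 bases with Klrc2, and Klrc2 shares 2.48% of its own with Klrc1 and Klrc3. No source used here says how such reads were assigned, so these counts are uncertain.

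**Figure D4:**
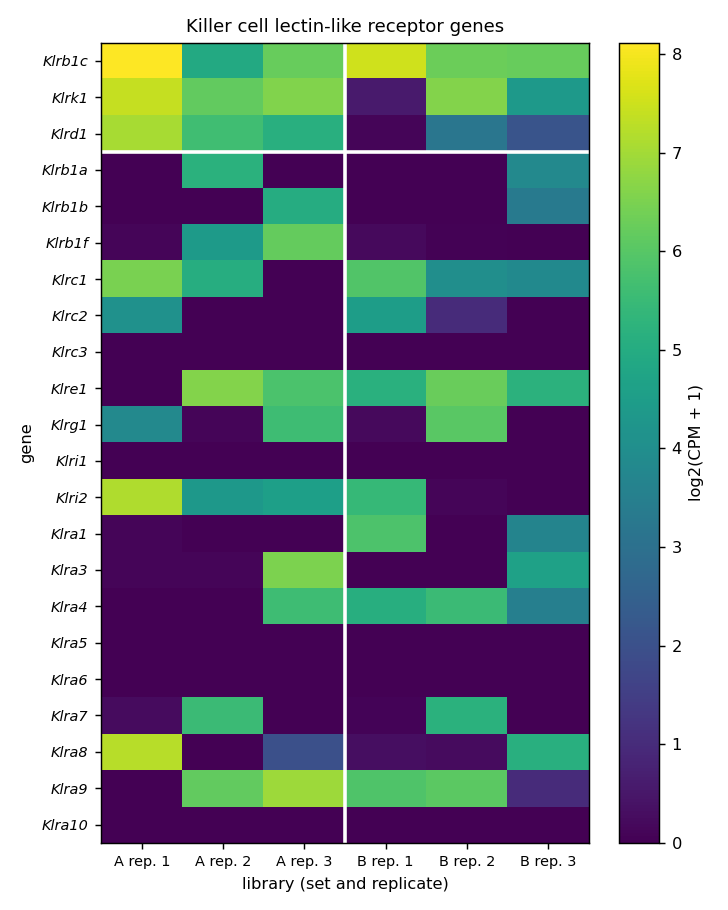
Level of 22 killer cell lectin-like receptor genes in the 6 libraries, as log2(CPM + 1), with the 3 members above the white line and set A left of the vertical line. Klrb1c is the only gene above 1 CPM in every library, and the bright cells of the Klra genes fall in different libraries.

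Among 14 other receptors and adhesion molecules 9 were tested and 0 passed by edgeR, with 8 fitted values below 0 (52% of all tested genes). Cd244a encodes 2B4, a receptor of NK cells and some myeloid cells. It was at 464, 408 and 471 CPM in A and at 67.9, 340 and 191 CPM in B, without overlap (a log2 difference of -1.28 with an SE of 0.56, adjusted p = 0.869 by edgeR). Cd244a was the 1 gene of the 9 that did not overlap. Of all tested genes 3.91% stood wholly higher in A and 10.2% wholly higher in B. Cd2, an adhesion receptor of T and NK cells, was at 138 to 515 CPM in A and 144 to 207 CPM in B, and Itgal, the LFA-1 chain, at 92.9 to 354 and 40.5 to 238 CPM. Fcgr3, a low-affinity IgG receptor shared with myeloid cells, was at 650 to 931 CPM in A and 641 to 1081 CPM in B.

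Adaptors that NK receptors use were abundant but are shared with myeloid cells. Fcer1g and Tyrobp (DAP12) averaged 5447 and 4615 CPM over the 6 libraries, and Hcst (DAP10), the adaptor of NKG2D, was at 59.6 to 147 CPM in A and 128 to 172 CPM in B. Sh2d1b1 (EAT-2), an adaptor of the 2B4 family, was at 226 to 404 CPM in A and 120 to 262 CPM in B. Of 13 such genes 12 were tested and 0 passed, with 10 fitted values below 0 (52% of all tested genes).

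Of 13 transcription factors of NK development 8 were tested and 0 passed. Id2, which blocks E proteins and is needed for innate lymphocytes, was at 749, 761 and 355 CPM in A and at 402, 306 and 501 CPM in B. Irf8 was at 219 to 487 CPM in A and 183 to 276 CPM in B.

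Of 9 cytokine receptor genes 7 were tested and 0 passed by edgeR, with 6 fitted values below 0 (52% of all tested genes). Of the 7, 2 stood wholly higher in A and 1 wholly higher in B (3.91% and 10.2% of all tested genes). DESeq2 called 2 lower in B and 1 higher (1.25% and 5.91% of the genes it could adjust). Ifngr1 was at 1457, 1091 and 1122 CPM in A and at 1025, 944 and 903 CPM in B, without overlap. Il2rg, the common gamma chain through which IL-15 and IL-2 signal, was at 1444, 2164 and 1241 CPM in A and at 545, 1127 and 1145 CPM in B, without overlap (a log2 difference of -0.89 with an SE of 0.36, adjusted p = 0.769 by edgeR). DESeq2 called it lower in B (adjusted p = 0.0251). Il2rb, the beta chain that NK cells need for IL-15, overlapped, at 1.49 to 129 CPM in A and 19.7 to 60.7 CPM in B. Il15ra, which presents IL-15, was at 0.0726 to 0.108 CPM in A, or 4 to 5 counts, and at 57.3, 35.2 and 17.3 CPM in B (a log2 difference of 8.60 with an SE of 2.21, adjusted p = 0.508 by edgeR, 2.43e-07 by DESeq2 and 0.0429 by limma-voom). Il15ra was named after its values were seen.

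Of 6 migration receptors 3 were tested and 0 passed. S1pr5, a sphingosine phosphate receptor by which mature NK cells leave marrow and lymph nodes, was at 199, 228 and 227 CPM in A and at 124, 80.1 and 359 CPM in B. Cx3cr1, which NK cells share with non-classical monocytes, was at 419 CPM in B3 and at 2.61 to 55.9 CPM in the other 5 libraries.

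Genes with a profile most like that of a member were sought over the 6 libraries, as the smallest root mean square difference between log2(CPM + 1) values centred on each gene's mean, among 3280 other tested genes with a mean of at least 50 CPM. For Nkg7 these were Rab14 (0.162), Wdr83os (0.173), Psma3 (0.197), Vim (0.202) and Ndel1 (0.234), against a median of 1.13 over all candidates. For Klrd1 they were Tnfaip1 (0.644), Prex1 (0.874), Fam204a (0.914), Cyb561a3 (0.926) and Nutf2 (0.973), against a median of 2.60. None of the 10 is on the lists of killer cell or T cell genes, and with 6 libraries close profiles are easily found among so many genes.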

How the data were processed

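The authors deposited 1 table of raw counts per Ensembl gene, with 1 column for each of 6 libraries and no pooling of columns. Cutadapt 1.9, HISAT2 2.2.1 and DESeq2 are listed in the submitters' processing notes without their roles. No source used here names the counting program, genome build, annotation or strand setting. Libraries were made with Smart-seq2 per the labels' protocols, which carries no molecular identifiers, and the descriptions also name 10x Genomics. Counts of 4 (5211 values) were far more common than counts of 3 (819) or 5 (660), so the number of fragments behind a count is not known.

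Symbols came from a table that matched 55141 of the 55401 identifiers. CPM is the count scaled by the library's total. Set B was compared with set A over all 6 libraries with edgeR 4.0.16 in R 4.3.3: filterByExpr, TMM, a robust glmQLFit, glmQLFTest and p adjusted after Benjamini and Hochberg over 9196 genes, with a threshold of 0.05. A standard error is the absolute log2 fold change over the square root of F. DESeq2 1.42.0 and limma-voom (limma 3.58.1) were alternatives, with other scalings and filters, a replicate block and each library left out. The code was tested on simulated data. Windows of 150 bases were compared over GENCODE M21 transcripts.

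Named were all members, the most abundant genes of each list, any further genes picked out after their values were seen, and the 5 genes most like Nkg7 and Klrd1. The members, the 9 pathway lists and the 8 cell type lists (181 of 182 entries matched) were chosen with earlier results of these data known. For the platelet, erythroid and plasmacytoid dendritic cell lists the median log2 difference was -0.75, -2.54 and -0.02. Each had 5 genes tested and 0 past the threshold by edgeR. DESeq2 called 1, 1 and 0 lower in B (1.25% of the genes it could adjust). The values of 1 gene of the migration receptor list are not reported here.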

Additional observations from a re-analysis of the deposited data

How the results depend on the processing

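By edgeR 0 of the tested members passed under every scaling, filter, threshold, count scale and omission tried, and by limma-voom 0 passed. DESeq2 called 2 (Ccl5 and Klrd1), 1 (Ccl5) without its Cook's distance cutoff and 0 on all genes with a count. Over all genes, the 2 calls of edgeR became 595 with DESeq2, 625 without that cutoff, 1214 without the filter and 202 with limma-voom. They became 0 at an adjusted p under 0.01 and 11 among genes with a mean of at least 300 CPM. Leaving out 1 library gave 0 to 1 genes. The 2 DESeq2 runs with another filter or cutoff and the limits of 100 and 300 CPM were chosen after seeing the data. With a replicate block edgeR called 0 genes and 0 members. Same-numbered libraries did not deviate together (correlations of 0.03, -0.02 and 0.03), so the numbers were not read as pairs.

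Directions turned for 3 members. The log2 difference of Klrb1c was 0.075 with limma-voom and 0.17 with the replicate block, and it ran from -0.91 (without B1) to 1.10 (without A1) when 1 library was left out. That of Gzmb ran from -0.49 (without B1) to 9.93 (without A3), at -0.03 without A1 or A2, and that of Prf1 from -0.35 (without A2) to 0.66 (without A1). The cause was not tested. The median of the members stayed below 0, from -1.01 without A2 to -0.32 without A1. RLE scaling moved the median of all genes from -0.06 to -0.16, and it was 0.87 with limma-voom, 0.48 with the replicate block and 0.28 without the filter. Eomes could not be tested for its low counts.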
